A study of Arabidopsis thaliana with 30 samples.

Results

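Root endodermis, sorted together with the quiescent center, was compared with the other sorted cell types of the Arabidopsis thaliana root on standard medium of pH 5.7. Its members were chosen by the sample labels alone. They are 3 arrays of the marker line pSCR::GFP, out of 15 arrays at this pH and 30 in the series. The other 12 arrays hold cortex (marker line pCOR315.1::GFP), stele (pWOL::GFP), epidermis with lateral root cap (pWER::GFP) and columella root cap (Pet111::GFP), with 3 arrays each.

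The series compares root cell types on acid and standard medium, and its 15 arrays at pH 4.6 were not used here. All plants were of the Columbia ecotype and carried 1 of these GFP reporters. Seedlings 5 days of age spent a further 24 h on fresh pH 5.7 medium with 3 mM DMG and sucrose, so the roots were 6 days old. Roots were made into protoplasts, fluorescent cells were sorted, and their RNA was amplified and hybridised to Affymetrix ATH1 arrays. The cells of a group are those in which 1 promoter drives GFP, and endodermis and quiescent center cannot be told apart in them. In such pooled cells, fewer cells of a type and less RNA per cell cannot be told apart either. Separate cultures are not stated for the replicates, and the p-values therefore reflect the spread between arrays that may be technical repeats.

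The endodermis is the innermost layer of the ground tissue and encloses the stele. Its cells build the Casparian strip, a ring of lignin in the cell wall that seals the space between cells, and later coat themselves with suberin. Lignin is made from monolignols, which class III peroxidases join by oxidation, and dirigent proteins guide such coupling. The strip is kept closed by a surveillance pathway in which small sulfated peptides from the stele are perceived by the receptor kinase GSO1 of the endodermis. The quiescent center is a small group of slowly dividing cells that maintains the surrounding stem cells.

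Values are MAS5 signals, an intensity on a linear scale, given for replicates 1, 2 and 3 in that order. Differences are on the log2(signal + 12) scale, as endodermis minus the mean of the other 4 cell types, with the standard error of the fit. A fold is 2 to the power of that difference and understates the change of genes near the pseudocount of 12. Adjusted p-values come from limma with Benjamini-Hochberg adjustment over 22746 probe sets, with a threshold of 0.05. Genes whose annotation holds no symbol are given by locus, and a name after a locus is the one in common use for that Arabidopsis locus.

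Median signals ran from 43.7 to 64.7 across the 15 arrays, and the 2% trimmed mean was 250 on each. Within a group, r between arrays across probe sets was 0.958 to 0.981. The endodermis arrays correlated with stele arrays at a median r of 0.924, with cortex at 0.912, with epidermis at 0.814 and with columella at 0.782, and probe sets are not independent replicates. The log2 ratio of 3 prime to 5 prime actin control signals, a sign of RNA quality, was 5.75 to 6.30 on endodermis arrays, 6.36 to 6.64 on cortex arrays and 4.73 to 5.92 on the others. Its part in the differences below was not tested.

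The marker gene was read first. It was chosen for its level in these cells, so its values describe the arrays and do not check their label. GSO1, the receptor kinase of Casparian strip surveillance and the marker of these cells, had signals of 6901, 7232 and 6953 on the endodermis arrays. The signals were 2698, 1966 and 829 in cortex and 1814, 1271 and 1283 in stele. They were 103, 51.1 and 96.2 in epidermis with lateral root cap and 44.8, 45.6 and 37.4 in columella. The endodermis lay above all 12 other arrays, with a narrow spread, and the cortex arrays differed among themselves the most. GSO1 was 21.3-fold above the mean of the other 4 cell types, with a log2 difference of 4.41 ± 0.25 and an adjusted p of 1.9e-09. It was 4.26-fold above cortex (adjusted p = 0.00011), 4.86-fold above stele (adjusted p = 6.9e-05), 76.2-fold above epidermis (adjusted p = 2.1e-10) and 129-fold above columella (adjusted p = 2.4e-11). The order of its levels was thus endodermis, then cortex and stele with overlapping arrays, then epidermis and columella, which were not tested against each other. SCR, whose promoter marks the sorted cells, had no probe set assigned to it alone and was not analysed here.

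Genes of Casparian strip formation were high in the endodermis. Of 30 genes in the list, 9 had a probe set of their own, and 8 of these were higher in the endodermis, against 16.2% of all probe sets. GSO1, chosen for its level in these cells, is among the 8 and enters each count below. This list, like the others here, was chosen with earlier results of these data known, so its counts only describe it. None was lower, and the median log2 difference of the 9 was 4.33, against 0.023 over all probe sets. In 7 of the 9 the endodermis was higher than each other cell type in 4 separate tests, which 2.78% of all probe sets passed. The same 7 had 3 endodermis signals above all 12 others, as did 4.60% of all probe sets. The count of 8 was the same in the 24 other fits that changed scaling, pseudocount, moderation or arrays.

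AT4G11290 (PER39), a class III peroxidase of the strip, had endodermis signals of 12331, 13786 and 12775. Its signals were 5545, 4539 and 2139 in cortex and 2759, 2666 and 2068 in stele, and 24.5 to 255 in the outer layers. The gene was 23.99-fold higher in endodermis (log2 4.58 ± 0.28, adjusted p = 3.3e-09), and no other array reached its endodermis level. AT1G44970 (PER9), a second such peroxidase, read 6479.8, 8745 and 8047 in endodermis and 2363, 1851 and 707 in cortex. It read 2372, 2391 and 1749.8 in stele, so cortex and stele again lay well below the endodermis without being near the floor. Its difference was 4.65 ± 0.28 (adjusted p = 2.6e-09). AT5G66390 (PER72), which works with these enzymes, was 19.4-fold higher (4.28 ± 0.29, adjusted p = 7.4e-09). Its signals were 10808, 14545 and 12214 in endodermis against 6540.1, 5586 and 4911 in stele, the smallest of the 4 pairwise differences at 1.14 ± 0.36 (adjusted p = 0.0418).

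Both measured dirigent proteins of the list behaved alike, and its other dirigent genes had no probe set of their own. AT2G39430 (DIR9) had signals of 8577, 12955 and 10965 in endodermis, 4044, 2788 and 1476 in cortex and 3940.0, 3675 and 2789 in stele. AT4G13580 (DIR18) had 12684, 16994 and 15065 in endodermis, 8055, 6500.5 and 2919 in cortex and 6240.2, 6907 and 5915 in stele. The highest epidermis or columella signal was 145 for DIR9 and 259.8 for DIR18, and all 3 endodermis arrays were the highest of the 15 for both. The differences were 4.33 ± 0.26 for DIR9 (adjusted p = 2.3e-09) and 3.86 ± 0.25 for DIR18 (adjusted p = 5.4e-09). AT1G61590 (SGN1), the cytoplasmic kinase that acts below GSO1, had signals of 3564, 3667 and 4259.7 in endodermis and 1249, 902 and 391 in cortex. In stele it had 1076, 673 and 549.7, and in the outer layers 11.7 to 31.4. SGN1 was 24.5-fold higher (adjusted p = 1.9e-09), close in size to GSO1.

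The other 2 measured members had other patterns. AT4G34600 (CIF2), a peptide ligand of GSO1, had signals of 275, 503 and 383 in endodermis and 642, 565 and 209.6 in stele. It stayed at or near the pseudocount on the other 9 arrays, between 0.86 and 12.3. Endodermis and stele overlapped, with a difference of -0.17 ± 0.38 (adjusted p = 0.845), while the endodermis was higher than cortex, epidermis and columella and higher than the mean of the 4 by 3.40 ± 0.30 (adjusted p = 1.4e-07). LAC16, a laccase, stayed between 1.01 and 14.99 on every array and did not pass (-0.39 ± 0.21, adjusted p = 0.165). CASP1 to CASP5, ESB1, PER64 and the other 14 genes of the list had no probe set of their own and were not analysed here.

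**Figure D1:**
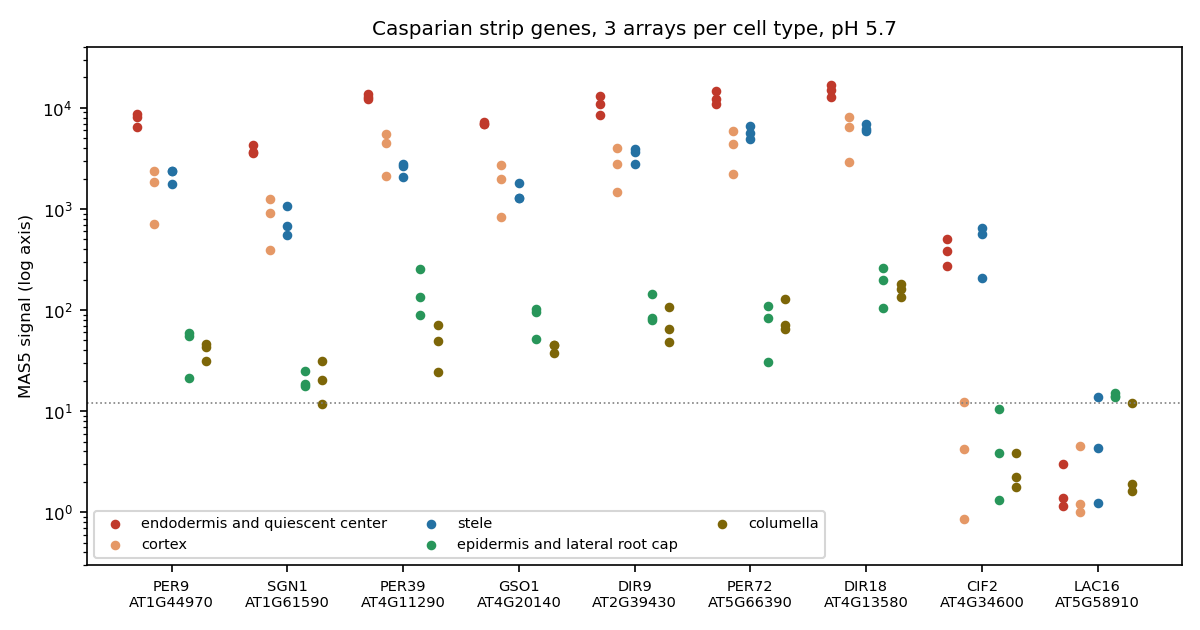
MAS5 signal (log axis) of the 9 measured Casparian strip genes in endodermis with quiescent center and the 4 other cell types, each point 1 array and 3 arrays a cell type; the dotted line marks the pseudocount of 12. In 7 genes the endodermis arrays lie above all others, with cortex and stele next, while CIF2 overlaps between endodermis and stele and LAC16 stays near or below the line.

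The summed signal of the 9 genes was 61621 to 78428 on endodermis arrays, 10667 to 29909 on cortex arrays and 19488 to 25387 on stele arrays. On epidermis arrays it was 469.9 to 816 and on columella arrays 413 to 524. The brightest genes carry these sums. CIF2 was near the pseudocount in cortex as in the outer layers. LAC16 was near or below the pseudocount in every cell type, so its levels have no order. Whether endodermal cells or their RNA were part of the cortex and stele sorts was not tested. In the other direction, AT1G09750, whose promoter is that of the cortex reporter, had 47.97, 53.7 and 51.9 in endodermis against 3286, 4175 and 4844 in cortex. The 4 cortex markers summed to 180 to 229.7 on endodermis arrays, 6920 to 7904 on cortex arrays and 305 to 461 on stele arrays. None of these 4 was higher in endodermis, and 3 were lower than the mean that includes cortex, against 15.5% of all probe sets. AT3G21670 did not pass against stele (adjusted p = 0.448) or epidermis (0.401) and was higher than columella (1.32 ± 0.27, 0.00074). AT1G62510 passed as lower than stele (0.0489), not against epidermis (0.448), and was higher than columella (2.33 ± 0.34, 2.6e-05). The marker that was not called, AT1G62500, was near the pseudocount in cortex too, at 23.8, 9.72 and 13.4. Of the 3 lower markers, AT1G62510 and AT3G21670 were no longer called without endodermis replicate 1 (adjusted p = 0.139 and 0.0788), and AT1G62510 was not without replicate 3 (0.0512).

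Transcription factors of ground tissue identity were the second group. Of 13 list members 3 were measured, and all 3 were higher in the endodermis, with a median of 1.54, against 16.2% of all probe sets. AT5G41920 (SCL23), a GRAS protein closely related to SCR, had 195, 189 and 229 in endodermis, 93.7, 84.7 and 77.7 in cortex and 41.97, 31.9 and 49.5 in stele. It reached at most 30.2 in the outer layers and was 5.34-fold higher (log2 2.42 ± 0.26, adjusted p = 1.6e-06). The 3 endodermis arrays were the highest of the 15. AT3G45260 (BIB), a zinc finger protein that retains the mobile regulator SHR in the ground tissue, had 79.1, 55.8 and 78.3 against 28.7, 46.8 and 10.7 in cortex. Its difference was 1.45 ± 0.30 (adjusted p = 0.00106).

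JKD, the related zinc finger protein that acts with SHR and SCR, had a different order. Its signals were 82.5, 102 and 190.1 in endodermis and 189, 301 and 438 in cortex. They were 13.6, 33.9 and 5.91 in stele, and at most 45.8 in the outer layers. Cortex was the brightest cell type, although endodermis and cortex overlapped by 1 array each, with a difference of -1.23 ± 0.51 (adjusted p = 0.0862). Against the mean of the 4, JKD was higher by 1.54 ± 0.40 (adjusted p = 0.00679), and without endodermis replicate 3 by 1.22 (adjusted p = 0.0684). In the same INDETERMINATE DOMAIN family, assembled after values were seen, 3 of 5 measured members of 16 were higher and none was lower, against the same 16.2% higher and 15.5% lower. The third was AT1G14580 (IDD6), with 289, 293 and 308 in endodermis and at most 60.1 elsewhere, a 11.9-fold difference (adjusted p = 6.6e-08).

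The quiescent center was poorly covered. Of 14 genes of the quiescent center and stem cell niche, 2 were measured. AGL42, a MADS box gene active in the quiescent center, had 77.9, 62.04 and 60.2 in endodermis, 112, 107 and 90.8 in cortex and 65.8, 51.3 and 42.1 in stele. Cortex was above endodermis in every array, at an adjusted p of 0.19 for that pair. The outer layers had 0.92 to 15.2, and against the mean of the 4 AGL42 was higher by 0.99 ± 0.23 (adjusted p = 0.00326). BBM, an AP2 factor of the stem cell niche, read under the pseudocount on 14 of 15 arrays and did not pass (adjusted p = 0.766). WOX5 and the other 11 genes were not analysed here, so the share of quiescent center cells in the sort was not tested.

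Cell division genes were measured in 3 of 22 cases, and 2 of the 3 were higher, against 16.2% of all probe sets. AUR2, an Aurora kinase of mitosis, had 109, 161 and 130.3 in endodermis and at most 73.9 on any other array. The kinase was 2.88-fold higher (adjusted p = 0.00038) and highest against each cell type. AUR1, its close paralog, was higher by 0.55 ± 0.18 (adjusted p = 0.0297), with stele above it at 108, 109 and 86.9 against 74.8, 80.3 and 72.8. The AUR1 call was lost with equal array medians (adjusted p = 0.0647), with quantile normalization (0.0594) and without any 1 of the 3 endodermis arrays (0.0700 to 0.110). PRL, a subunit of the replicative helicase, did not pass (0.30 ± 0.26, adjusted p = 0.438).

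Of all 22746 probe sets, 7217 passed against the mean of the other 4 cell types, 31.7%. They were 3680 higher and 3537 lower in the endodermis, 16.2% and 15.5%. Against single cell types the endodermis differed least from stele, with 3596 probe sets (15.8%), of which 1574 were higher (6.92% of all) and 2022 lower (8.89%). It differed from cortex in 6079 (26.7%, with 3414 or 15% higher and 2665 or 11.7% lower), from epidermis with lateral root cap in 8590 (37.8%, with 4808 or 21.1% higher and 3782 or 16.6% lower) and from columella in 9593 (42.2%, with 4224 or 18.6% higher and 5369 or 23.6% lower). These comparisons share the 3 endodermis arrays. The balance of directions moved with the scaling. With equal array medians the counts were 2240 higher and 4256 lower than cortex, 2208 and 1641 against stele, and 3661 and 4726 against epidermis. That scaling shifted the median of all probe sets from 0.086 to -0.173 against cortex, from 0.043 to 0.163 against stele and from 0.100 to -0.092 against epidermis.

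**Figure D2:**
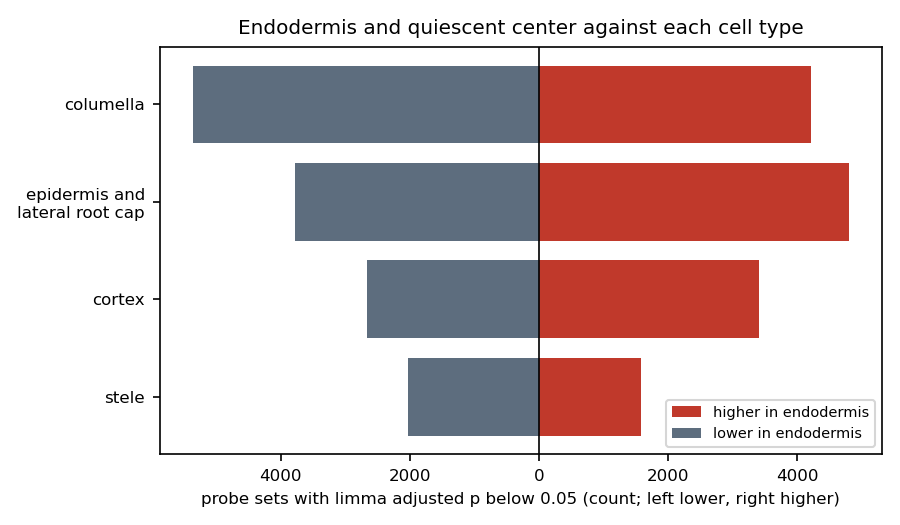
Number of probe sets past a limma adjusted p of 0.05 between endodermis with quiescent center and each other cell type, higher in endodermis to the right and lower to the left. The bars are shortest for stele (1574 and 2022) and longest for columella (4224 and 5369).

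A minority of these genes were highest in the endodermis. Of the 3680 higher probe sets, 633 were higher than each other cell type, and 1205 were higher than 3 of the 4. Within the 1205, the pair that did not pass as higher was the one with stele for 689, with cortex for 347, with columella for 139 and with epidermis for 30. The next brightest cell type of the 633 was stele in 316, cortex in 221, columella in 68 and epidermis in 28. Of the 3537 lower probe sets, 384 were lowest in the endodermis against each cell type, 1.69% of all. For these the brightest cell type was epidermis in 173, columella in 152, cortex in 48 and stele in 11. Without 1 array the 633 ranged from 467 (without endodermis replicate 3) to 699 and the 384 from 311 (without the same array) to 413.

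CCR2, a cinnamoyl-CoA reductase of monolignol synthesis, had 2371, 2629.8 and 3217 in endodermis and 242, 166 and 104 in cortex. Its stele signals of 905, 1144 and 530.0 came next, and the outer layers had 1.73 to 49.5. CCR2 was 27.7-fold higher (log2 4.79 ± 0.33, adjusted p = 1.1e-08). HCT, which acts earlier in the same pathway and was the 1 measured gene of 14 in the monolignol list, was high in several layers, with 5111, 5535 and 8219 in endodermis, 3942, 3028 and 1694 in cortex and 2981, 1936 and 2224 in stele. It still passed against each cell type and was 5.80-fold above the mean (adjusted p = 2.6e-07). TBL30, of a family of wall polysaccharide acetyltransferases, had 2928, 3337 and 4369.8 in endodermis, 897, 588 and 418 in cortex and 483, 524 and 229 in stele, a 24.1-fold difference (adjusted p = 1.1e-09). Its relative TBL19, chosen after values were seen, was 16.2-fold higher (adjusted p = 6.7e-09).

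Among the 20 largest higher differences, AT2G22620 led with 3715, 4027 and 4233 in endodermis, 792, 792 and 258 in cortex and 1098, 967 and 525 in stele. The outer layers stayed between 1.70 and 19.8, and the difference was 34.9-fold (log2 5.13 ± 0.32, adjusted p = 3.3e-09). AT1G43020 followed the same order at higher signals, 6081, 8407 and 8626 in endodermis against 2303, 1498 and 740.5 in cortex (4.99 ± 0.35, adjusted p = 1.2e-08). AT3G22620 was among the brightest, with 12202, 16499.9 and 13663 in endodermis, 4885, 5859 and 2199 in cortex and 6543, 5688 and 2260.0 in stele (4.49 ± 0.34, adjusted p = 2.6e-08). AT5G45210 had endodermis signals of 874, 918 and 831, with at most 110.2 on any other array (4.72 ± 0.25, adjusted p = 9.8e-10). For all 20, by the rule that chose them, the endodermis arrays lay above the other 12. Their differences ran from 4.47 for AT5G53320 to 5.13 for AT2G22620.

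Cortex replicate 3 read lowest of the cortex arrays in all 20 of these genes and in GSO1. Over the 633 highest probe sets, the median signal as a percent of the endodermis mean was 36.6, 30.9 and 21.0 on the cortex arrays. It was 38.7, 36.0 and 27.9 on the stele arrays, 12.1 to 12.9 in epidermis and at most 12 in columella. These probe sets were chosen on the same arrays, so the percentages only describe them. Without cortex replicate 3, GSO1 and the 20 largest higher genes all passed.

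**Figure D3:**
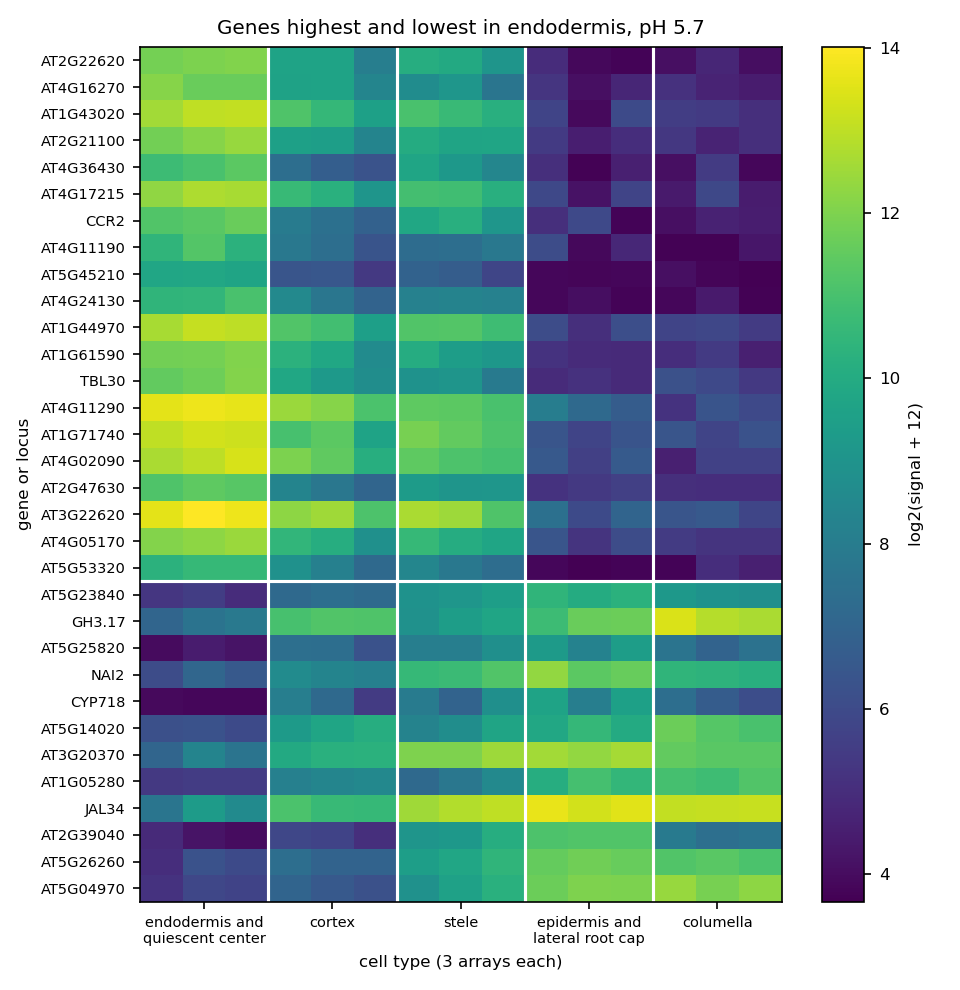
log2(signal + 12) of the 20 genes with the largest higher and the 12 with the largest lower difference in endodermis, over 15 arrays grouped by cell type. The upper block is bright in endodermis, intermediate in cortex and stele and dark in epidermis and columella; the lower block is dark in endodermis and brightest in epidermis or columella for most genes.

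Single pairs had further leaders. Against stele, the largest differences among genes highest in every test were in AT2G16750 and IDD6 beside AT4G16270, AT4G11190 and AT5G45210. AT2G16750 had 543, 368 and 618 in endodermis against 63.5, 49.1 and 27.1 in stele, 9.03-fold (adjusted p = 9.5e-06). Against cortex, AT5G01870 differed widely among its own arrays, with 139, 496 and 214 in endodermis and 1.18, 1.86 and 2.04 in cortex. The stele arrays had 2.68, 3.48 and 115, so 1 of them came near the lowest endodermis array, and the difference from cortex was 4.24 ± 0.71 (adjusted p = 0.00024). ATPMEPCRB, a pectin methylesterase, had 909.6, 1094 and 828 in endodermis, 53.5, 15.4 and 22.9 in cortex and 516, 443 and 233 in stele. It was 23.9-fold above cortex (adjusted p = 1.3e-07) and 2.44-fold above stele (adjusted p = 0.0166).

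Class III peroxidases were called on both sides. The family list was assembled after values were seen and gives counts only. Of 73 genes, 55 were measured, 18 were higher, 11 lower and 26 did not pass, with a median of 0.30. Over all probe sets 16.2% were higher and 15.5% lower, and the lower count of the family is near that share. Highest against each cell type were 7, against 2.78% of all probe sets. Beside PER9, PER39 and PER72 these were AT4G16270 (PER40), AT4G36430 (PER49), Prx37 and AT5G06730 (PER54). PER40 had 4527, 3209 and 3219.8 in endodermis, 773, 790.2 and 319 in cortex and 398, 542 and 191 in stele, a 32.6-fold difference (adjusted p = 2.9e-09). PER49 had 1727, 2086 and 2689 in endodermis but 158, 96.6 and 66.7 in cortex and 836, 565 and 331 in stele, so stele and not cortex was its next layer. The difference for PER49 was 4.85 ± 0.34 (adjusted p = 1.4e-08). Prx37, with 4454, 4877 and 4362 in endodermis, was higher by 4.13 ± 0.26 (adjusted p = 3.7e-09), and cross-hybridisation with its close paralog AT4G08780 (PER38) was not tested.

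Other peroxidases were shared with the stele. AT3G21770 (PER30) had 2078, 3638 and 2014 in endodermis and 4009, 2329 and 1647 in stele, against 151, 119 and 114 in cortex. The endodermis and stele signals overlapped, with a difference of 0.00 ± 0.35 (adjusted p = 0.996), while the difference from the mean of the 4 was 3.46 ± 0.28 (adjusted p = 5.1e-08). AT4G33420 (PER47) had 1786, 2992 and 2788 in endodermis, 2352, 1442 and 983 in stele and a difference of 0.71 ± 0.32 between them (adjusted p = 0.162). AT5G51890 (PER66) was higher in stele, at 4761, 2433 and 2565, than in endodermis, at 679.6, 817 and 599 (adjusted p = 6e-06). Cortex lay at 27.4, 27.9 and 21.4 for PER66, so for this gene the endodermis lay between stele and cortex.

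Of the 55 measured peroxidases 11 were lower, and 1 was lowest in endodermis against each cell type, near the 1.69% of all probe sets. The lowest was AT2G39040 (PER24), with 17.8, 6.58 and 3.97 in endodermis against 2239, 2359.7 and 2316 in epidermis. Its difference was -4.09 ± 0.23 (adjusted p = 1.6e-09). AT1G30870 (PER7) had 9961, 5079 and 8775 in epidermis and 2668, 2715 and 7466 in stele, against 18.2, 241 and 167 in endodermis (-2.63 ± 0.56, adjusted p = 0.00139). Of 3 measured epidermis and root hair markers, EXPA7 and EXPA18 were bright on stele arrays too. XTH26 was low in epidermis itself, at 41.1, 10.7 and 12.1, and below the pseudocount in stele, at 1.52, 0.9 and 7.18. Its stele values therefore cannot be set against those of the expansins. EXPA7, an expansin of root hairs, had 5412, 1780.0 and 3213 in epidermis, 1096, 1119 and 2340.3 in stele and 11.3, 86.1 and 36.4 in endodermis. The 3 markers, of which the expansins carry most of the signal, summed to 1486 to 3311 on stele arrays, 2820.0 to 8937 on epidermis arrays and 18.6 to 166 on endodermis arrays. Their part in the differences between endodermis and stele was not tested.

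The dirigent family list was also assembled after values were seen. Of 25 genes 15 were measured, 8 were higher and none was lower, with a median of 1.02, against 16.2% of all probe sets higher and 15.5% lower. Highest against each cell type were 5, against 2.78% of all probe sets. These were DIR9, DIR18, AT2G21100 (DIR23), AT4G11190 (DIR13) and AT1G55210 (DIR20). DIR23 had 3581, 4493 and 5398 in endodermis, 743, 691 and 313 in cortex and 1038, 822 and 842 in stele, and at most 30.5 in the outer layers. Its 29.4-fold difference (adjusted p = 6.6e-10) was the largest of the family. DIR13 had 1367, 2404 and 1248 in endodermis and 214, 156 and 70.6 in cortex (4.77 ± 0.35, adjusted p = 2.3e-08). AT4G11210 (DIR14) was shared with the stele, at 441, 620.4 and 487 in endodermis and 611, 443 and 333 in stele (adjusted p = 0.764 for the pair). Under the other scalings and without single arrays, the count of higher dirigent genes was 7 or 8, and that of higher peroxidases 16 to 20.

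**Figure D4:**
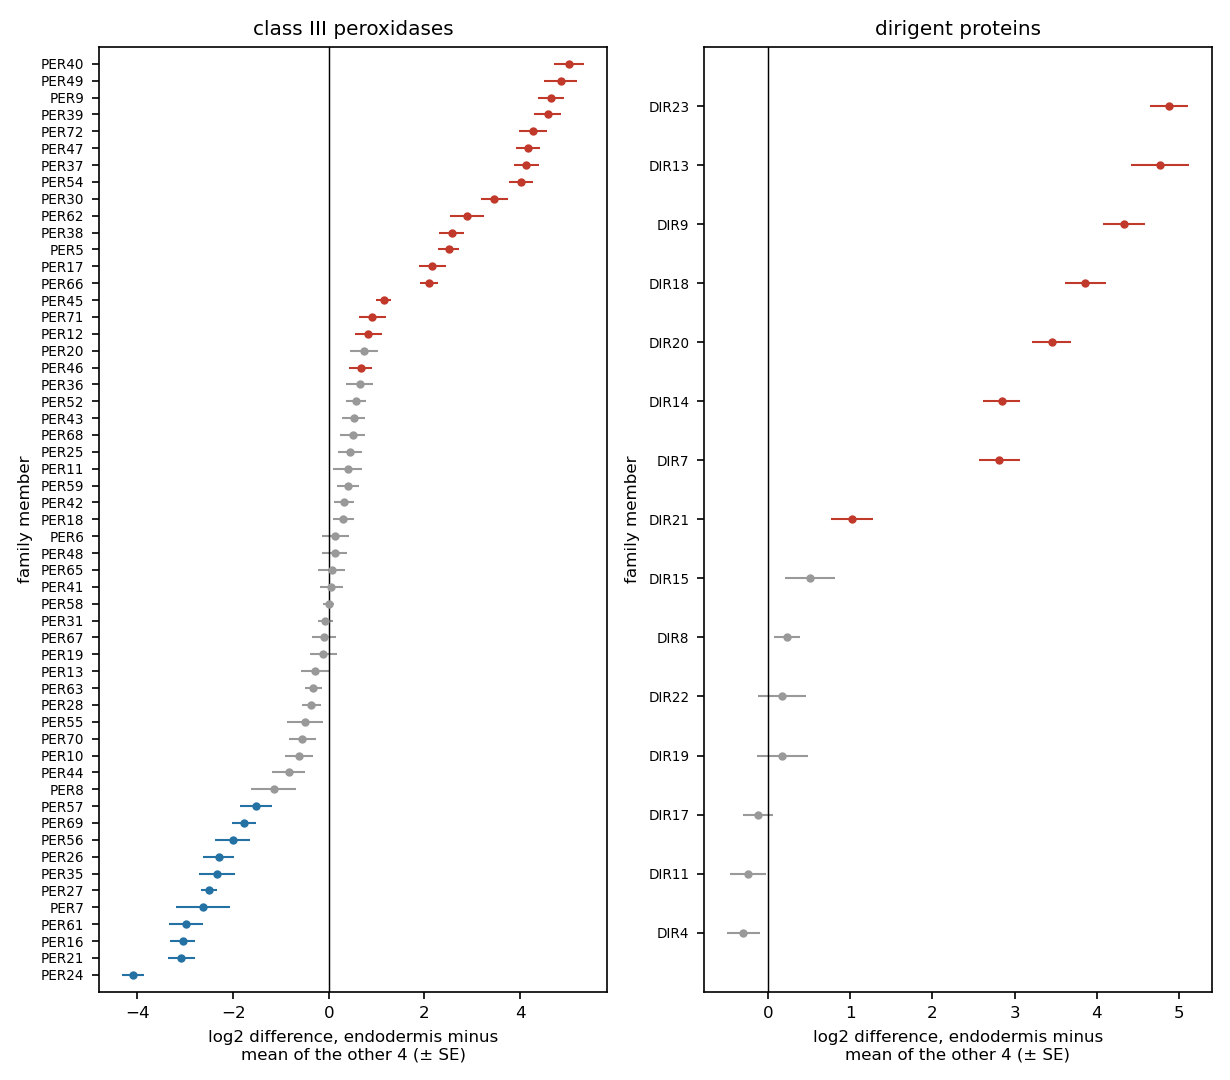
log2 difference between endodermis with quiescent center and the mean of the other 4 cell types (± SE of the limma fit) for 55 class III peroxidases and 15 dirigent proteins; red marks genes higher and blue genes lower at an adjusted p below 0.05, grey the rest. Peroxidases spread to both sides, from -4.09 for PER24 to 5.03 for PER40, while no dirigent gene is blue.

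Monolignol glucosyltransferases, which store or export lignin precursors as glucosides, divided between cell layers. These 4 genes and CCR2 were grouped after values were seen. UGT72E3 had 1249, 1732 and 1861 in endodermis, 729, 565 and 206 in cortex and 469.6, 229 and 212 in stele, and was 14.4-fold higher (adjusted p = 5.3e-08). UGT72E2 was lower in endodermis, at 896, 1357 and 1524 against 5418, 5568 and 6003 in cortex, with a difference of -1.34 ± 0.20 (adjusted p = 4.2e-05). UGT72E1 was near the pseudocount in endodermis and high in the outer layers, at 674, 1342 and 1139 in epidermis and 920.2, 745 and 669.6 in columella (-3.16 ± 0.32, adjusted p = 6.6e-07). GT72B1 was 5.59-fold higher (adjusted p = 2.4e-08), but its endodermis signals of 2443, 2159.9 and 2689 did not pass against cortex at 1916, 1670.2 and 1219.5 (adjusted p = 0.0618). The UGT72E genes are close paralogs, and cross-hybridisation between them was not tested.

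Suberin genes were measured in 2 of 24 cases. AT2G48130 (LTPG15), a lipid transfer protein of suberin deposition, had 331, 459.5 and 379 in endodermis, 109, 102 and 44.2 in cortex and 75.7, 62.00 and 78.6 in stele. It was at most 12.6 in the outer layers and 9.91-fold higher (adjusted p = 5.9e-09). FACT, an acyltransferase of suberin waxes, did not pass (0.37 ± 0.25, adjusted p = 0.296).

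In the gibberellin list 5 of 23 genes were measured and 1 was higher, against 16.2% of all probe sets. That count is near the share, and the median log2 difference of the 5 was -0.07. AT1G68570 (NPF3.1), a transporter that can carry gibberellin into the endodermis, had 320.3, 221 and 257 in endodermis, 30.1, 33.8 and 28.4 in cortex and 43.8, 31.98 and 37.6 in stele. No other array passed 43.8, and the difference was 9.07-fold (log2 3.18 ± 0.23, adjusted p = 1.8e-08). The receptors GID1A, GID1B and GID1C and the F-box protein SLY1 did not pass, with differences of -0.36, -0.07, 0.13 and -0.10 (adjusted p = 0.0782, 0.798, 0.728 and 0.661). GID1A read 83.6, 92.3 and 79.8 in endodermis and 167, 153 and 224 in cortex. With equal array medians GID1A was lower, by 0.43 on the log2 scale (adjusted p = 0.0483). No gene of the aquaporin, abscisic acid or auxin transport lists had a probe set of its own.

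Genes lowest in the endodermis included those of the ER body, a compartment of the endoplasmic reticulum that stores beta-glucosidase against herbivores. Of 18 genes in a list assembled after values were seen, 7 were measured, 5 were lower and none was higher, with a median of -2.83, against 15.5% of all probe sets lower and 16.2% higher. Lower than each other cell type were 4, against 1.69% of all probe sets. NAI2, which is needed to form ER bodies, had 54.5, 123 and 81.7 in endodermis, 387, 310.4 and 274 in cortex and 1519, 1662 and 2350.0 in stele. The epidermis had 5181, 2721 and 3139 and the columella 1380.1, 1305 and 1146, and the others exceeded endodermis 13.7-fold (log2 -3.77 ± 0.21, adjusted p = 1.4e-09). No array of another cell type came down to the endodermis level.

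PYK10, the beta-glucosidase of ER bodies, had 505, 1084 and 721 in endodermis and 3449.9, 3176 and 1862 in cortex. It was one of the brighter genes elsewhere, with 7370.5, 7855 and 11502 in stele, 12099, 11309.6 and 12698 in epidermis and 12440.2, 13864 and 13670.5 in columella. The difference was -3.40 ± 0.21 (adjusted p = 3.2e-09). The lectin JAL34, of the jacalin-related family that forms complexes with PYK10, had 196, 645 and 377 in endodermis and 12947, 10044 and 12079.5 in epidermis, a 15.9-fold lower level against the mean of the others (adjusted p = 1.9e-09). NAI1, the transcription factor of these genes, was lower by less (-1.76 ± 0.19, adjusted p = 1.9e-06). JAL33 was an exception, since cortex was below endodermis, at 44.5, 41.5 and 26.5 against 81.2, 134 and 73.4, although the difference from the mean was -2.83 ± 0.24 (adjusted p = 1.1e-07). PYK10, JAL33 and NAI1 were chosen after their values were seen.

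**Figure D5:**
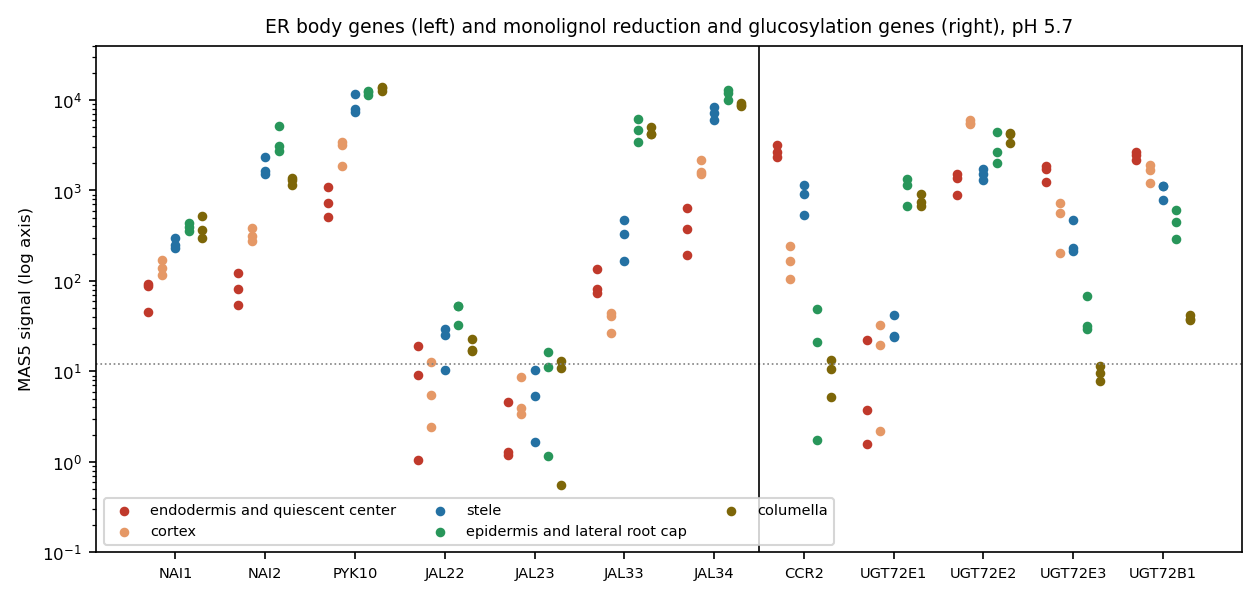
MAS5 signal (log axis) of 7 ER body genes (left) and 5 genes of monolignol reduction and glucosylation (right), each point 1 array, 3 arrays a cell type; the dotted line marks the pseudocount of 12. NAI1, NAI2, PYK10 and JAL34 are lowest in endodermis, JAL22 and JAL23 are low in every cell type, and CCR2, UGT72E3 and GT72B1 (drawn as UGT72B1) are brightest in endodermis.

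The 12 largest lower differences ran from -3.64 for AT5G23840 to -4.48 for AT5G04970. AT5G04970 had 24.2, 45.7 and 41.2 in endodermis and 117, 82.5 and 62.9 in cortex, against 3302, 4120.1 and 4046 in epidermis and 5523, 3738 and 4928 in columella. Its level was 22.3-fold lower in endodermis (adjusted p = 7.4e-10), with stele between. GH3.17, which joins auxin to amino acids, had 119, 182 and 216 in endodermis and 11025, 7464 and 6619.6 in columella. Cortex had 2024, 2361 and 2265, above stele at 470.3, 670.0 and 842, and the difference was -3.72 ± 0.22 (adjusted p = 2.2e-09). CYP718, a cytochrome P450, was below the pseudocount on all 3 endodermis arrays, at 3.06, 2.44 and 2.45. Its other 12 arrays had 32.2 to 804 (-3.79 ± 0.46, adjusted p = 5.4e-06), so its endodermis level has no order.

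Markers of the remaining cell types gave mixed values. Of 3 stele markers, none passed against the mean of the other 4. LHW, a basic helix-loop-helix factor of vascular development, had 216, 282 and 232 in endodermis and 279.8, 181 and 191 in stele. PHV, a homeodomain factor, had 80.2, 79.9 and 56.01 in endodermis and 195, 213 and 119.8 in stele, and was brightest in columella at 412, 418 and 385. In the pair with stele PHV was lower in endodermis, with a log2 difference of -1.14 ± 0.26 (adjusted p = 0.00491), as were 8.89% of all probe sets. The third, OPS, a vascular membrane protein, lay near the pseudocount. The 3 markers summed to 290.0 to 398 on endodermis arrays, 320.3 to 486 on stele arrays and 573 to 767 on columella arrays. Of 2 root cap markers, AT4G04460 was lower (-1.86 ± 0.21, adjusted p = 2e-06) and AT1G72490 (LZY3), which acts in gravity signalling, was higher by 1.13 ± 0.27 (adjusted p = 0.00364). LZY3 had 253, 110.0 and 109.7 in endodermis and 804, 570.1 and 551 in columella, and without endodermis replicate 1 its call was lost (0.75, adjusted p = 0.0603). The root cap sum was 174 to 387 on endodermis arrays, 35.8 to 41.3 on cortex arrays and 572 to 1005 on stele arrays. It was 2809 to 3613 on epidermis arrays and 941 to 1358 on columella arrays. The part of cap cells in the endodermis sort was not tested.

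The genes most like GSO1 were ranked by Pearson correlation of log2(signal + 12) over the 15 arrays, which share cell types and scaling. They were AT4G05170, AT2G14900, AT1G56230, SGN1 and AT2G37950, each with r of 0.99 or 1.00 after rounding. AT4G05170 had 4321, 4829 and 5649 in endodermis, 1408, 1092 and 452 in cortex and 1515, 1063 and 855 in stele. AT1G56230 followed the same order over a narrower range, with 1491, 1133 and 1184 in endodermis and 69.6, 70.6 and 64.5 in columella. This likeness is a description, since GSO1 was chosen for its level in these cells.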

How the data were processed

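Per the submitters' processing notes, the authors computed the deposited intensity of each probe set with MAS5, on a linear scale, and the genome build is not given in the sources used here. No replicates were pooled in the deposited table. Of 22810 probe sets, 64 Affymetrix controls were left out. Of the 22746 tested, 13436 had 1 gene of the TAIR10.1 annotation, 77 had 1 gene outside it, 503 had several genes and 8730 had none in the table used. Only probe sets with 1 gene are named. The number of arrays limits the precision.

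Signals were fitted as log2(signal + 12) in R 4.3.3 (limma 3.58.1), giving each of 5 groups of 3 arrays its own mean, 10 residual degrees of freedom (median prior 6.5) and an intensity trend. Contrasts were endodermis minus the mean of the other 4 and minus each of them, and a gene is highest or lowest in each where all 4 pairs pass in 1 direction. All tests are two-sided.

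Named are the 20 largest higher and 12 largest lower differences whose arrays do not overlap the others, leaders of each pair (5 highest in each cell type, 3 lower), up to 8 passing and 4 other members of each list, GSO1 and the 5 genes most like it. The members and lists were chosen with earlier results of these data known. Of 14 lists with 263 entries, those not described had no measured gene, and 5 lists were added after values were seen. Names after a locus without a symbol are those in common use. In simulated data with 50 genes per size, the fit called 34 at a log2 difference of 1, 49 at 2, 38 at -1 and 50 at -2. Only these genes were changed there, all were drawn from means well above the pseudocount, and the noise was independent. The counts are therefore not the power of the fit on the real data. Between cell types, the deviations of same-numbered arrays from their group means correlated at -0.163 to 0.208 (median 0.000434), and 4 of 30 pairs passed 0.1. For arrays of different numbers they correlated at -0.262 to 0.285 (median 0.000337), and 6 of 60 pairs passed 0.1. These correlations cannot show whether arrays shared a culture or sorting day, which the labels do not state. Alternatives were other pseudocounts (1 and 50), quantile normalization, equal medians, a filter, a replicate block, other moderation, array weights, a 2-fold limit, fits to 6 arrays and leaving out each array.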

Additional observations from a re-analysis of the deposited data

How the results depend on the processing

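Of 84 named genes, 72 kept direction and call in the alternatives run on them, 12 changed in at least 1, and the filter, which kept 16180 probe sets, left out those below it. OPS, a vascular gene that passed in none of the fits, changed sign with a pseudocount of 1 (-0.008), quantile normalization (-0.026) and equal medians (-0.007). Leaving out 1 array gave -0.351 to 0.535 for OPS, -0.162 to 0.019 for GID1B, -0.189 to 0.469 for GID1C and -0.202 to 0.070 for SLY1, with signs changed without endodermis replicate 2 (OPS, GID1B), endodermis replicate 3 (GID1C, SLY1) and epidermis replicate 1 (OPS, 0). The cause was not tested.

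A 2-fold limit lowers counts by its construction. It left 3349 probe sets against the mean of the other 4 (1793 higher and 1556 lower), 3701 against cortex (2265 and 1436), 2385 against stele (896 higher), 5572 against epidermis (3162 and 2410) and 6332 against columella (3261 lower), with 408 highest and 205 lowest in each. Equal array medians gave 2240 higher and 4256 lower than cortex, with the median of all probe sets shifted from 0.086 to -0.173 for that pair. Which scaling is right was not tested. The other count alternatives stayed within 1.5 times. With the replicate number as a block, 7064 probe sets passed against the mean of the other 4 (3628 higher), and no count moved by over 1.5 times. The cortex markers AT1G62510 and AT3G21670 lost their call with a pseudocount of 1 (adjusted p = 0.173 and 0.223), as did AT5G11420 (0.0612). Both cortex markers also lost it without endodermis replicate 1 (0.139 and 0.0788), and AT1G62510 without replicate 3 (0.0512).

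Leaving out 1 array gave 5700 to 7522 probe sets against the mean of the other 4, with 2910 to 3896 higher and 2790 to 3626 lower. The pairs ranged over 4937 to 6464 for cortex (2742 to 3652 higher, 2195 to 2812 lower), 2705 to 3920 for stele (1069 to 1770, 1636 to 2150), 7371 to 8659 for epidermis (4045 to 4903, 3301 to 3807) and 8514 to 9841 for columella (3794 to 4332, 4687 to 5509). Those highest in each ranged from 467 to 699 and those lowest from 311 to 413. Low signal over background limits what can be said of genes near the pseudocount, whose folds are understated and whose levels have no order.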

Other observations

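Other named genes of known function, chosen after values were seen, also differed. LEP, an AP2 transcription factor, had 2076, 2039.7 and 2025 in endodermis against 538, 506 and 271 in cortex and 1061, 1160.3 and 758 in stele, and was 5.65-fold higher (limma adjusted p = 3.7e-08). XTH16, a xyloglucan endotransglucosylase, was 15.04-fold higher (adjusted p = 2e-08) with 1283, 1091 and 875 in endodermis. EXLA1, an expansin-like protein, was 5.57-fold higher (adjusted p = 5.6e-07), while the expansin EXPA9 was lower than in each other cell type, at 105, 62.4 and 99.3 in endodermis and 1175, 1675 and 2137 in epidermis (adjusted p = 6.6e-08). The glucosinolate transporter GTR2 was brightest in cortex, at 527, 634 and 232, against 63.8, 61.00 and 51.9 in endodermis (adjusted p = 4e-06 for the pair). MYC4, a jasmonate transcription factor, was lower than in each other cell type, with 85.97, 54.95 and 46.3 in endodermis and a difference of -1.23 ± 0.23 (adjusted p = 0.00049). ALDH2C4, an aldehyde dehydrogenase that makes ferulic and sinapic acids, had 589, 375 and 479 in endodermis and 2802, 2758 and 3294 in epidermis and was also lowest (-1.83 ± 0.17, adjusted p = 3.2e-07).

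Plastid-encoded genes were higher in endodermis for 54 of 69 probe sets, and none was lower or passed against stele in either direction. None was higher than each other cell type, and most did not pass against epidermis. Over all probe sets 16.2% were higher and 15.5% lower. The arrays of a group differed widely, as for psaJ, a photosystem I subunit. It had 414, 888 and 218 in endodermis, 515, 573 and 73.8 in stele and 3.24, 15.2 and 20.3 in cortex. It had 40.5, 274 and 177 in epidermis, a pair that did not pass (limma adjusted p = 0.0686), and 21.5, 11.6 and 19.9 in columella. The count of 54 fell to 25 without endodermis replicate 2 and was 63 without epidermis replicate 2.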
